A study of Mus musculus with 12 samples.

Results

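The genes described here encode the plasminogen activators, their cell surface receptor and the serpins of that system. They are Plau (urokinase), Plat (tissue plasminogen activator), Plaur (the urokinase receptor), Serpine2 (protease nexin-1), Serpinb2 (PAI-2) and Serpinf1 (PEDF). They were chosen by name, and each of these 6 symbols matched a single row among the 55401 genes of the expression table. The mRNA was sequenced from mesenchymal stem cells (MSCs) of C57BL/6 mouse bone marrow, with 3 libraries in each of 4 groups. The first group was untreated. The other 3 groups all received TGF-β1 at 5 ng/mL, which drives MSCs toward myofibroblasts, and received it alone, with M-MDSC sup or with G-MDSC sup. These supernatants are the medium in which sorted monocytic (M-MDSC) or granulocytic (G-MDSC) myeloid-derived suppressor cells had been cultured (gated as CD11b+ cells that were Ly6G- and Ly6C high, or Ly6G+ and Ly6C low), so no group held a supernatant without TGF-β1 or plain conditioned medium as its control. The MSCs came as a purchased cell product, and nothing states that the libraries of a group came from separate cultures. The p-values therefore measure the spread between these libraries, which may be technical.

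Urokinase and tissue plasminogen activator are serine proteases that cut plasminogen, a zymogen made mainly by the liver, into plasmin. Plasmin digests fibrin and other matrix proteins, and it activates matrix metalloproteinases and latent growth factors, TGF-β among them. The urokinase receptor is a GPI-anchored protein that holds urokinase at the cell surface and binds vitronectin and integrins. Protease nexin-1 inhibits thrombin, urokinase and plasmin, PAI-2 inhibits urokinase and tissue plasminogen activator, and PEDF has the serpin fold but does not inhibit proteases. In fibrotic tissue this system is known as a brake on matrix deposition, and several of its genes are regulated by TGF-β.

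Each library held 73977669 to 84565450 counts, and scaling factors ranged from 0.978 to 1.03. All 8 MSC markers were above 0 in every library, although Eng and Nt5e, which mark human MSCs, stayed at or below 1.66 FPKM. The myeloid markers Mpo and Elane were at 0 in every library, and Ptprc, which marks all leukocytes, reached at most 26 counts. The other myeloid markers did not move one way. Lyz2 had 0 to 23 counts without supernatant, 71 to 262 with M-MDSC sup and 185 to 262 with G-MDSC sup. S100a9 had 0 counts without supernatant and 12 to 43 with M-MDSC sup. With G-MDSC sup it had 0 to 160 counts, with a median of 0 FPKM. Itgam had at most 1 count without supernatant, 0 to 41 with M-MDSC sup and 14 to 42 with G-MDSC sup. Ly6g and Ly6c2, genes of the antigens used to sort the MDSCs, were highest in untreated MSCs. Ly6g had 152 to 161 counts there, 4 to 8 with TGF-β1, 0 to 13 with M-MDSC sup and 0 to 18 with G-MDSC sup, and Ly6c2 had 393 to 439, 0 to 21, 20 to 47 and 21 to 79 counts. The part of myeloid RNA in the results below was not tested. The summed level of the 15 myeloid markers was 28.9 to 30.8 FPKM in untreated MSCs, 15.7 to 17.2 with TGF-β1, 23.0 to 28.9 with M-MDSC sup and 29.4 to 31.0 with G-MDSC sup, most of it from Cd14. The 6 endothelial markers summed to at most 0.632 FPKM, and the progenitor marker Kit reached at most 10 counts. Liver and kidney transcripts set the supernatant libraries apart. The 8 liver markers summed to 0.435 to 0.656 FPKM without supernatant, where 7 of the 8 were at 0, and to 71.4 to 76.9 FPKM with G-MDSC sup, where all 8 were present. With M-MDSC sup they summed to 1.25 FPKM in replicate 1 and 1.08 FPKM in replicate 2 but to 65.7 FPKM in replicate 3, so that replicate 3 stood apart from its group. The 9 kidney tubule markers summed to 0.352 to 0.501 FPKM without supernatant, to 43.8 to 57.7 FPKM with G-MDSC sup and to 15.9, 12.6 and 79.3 FPKM in the M-MDSC sup replicates.

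The promoter letters of the members that moved in different ways are shown for comparison, Serpine2 because it fell with TGF-β1, Plaur because it rose and Serpinb2 because it did neither. RefSeq promoters of build GRCm38.p6 matched 4 of the 6 members by symbol. The stretches below lie within the 250 bases before the start of the gene, cut where an annotated exon begins, and the capitals mark exact matches to the motifs searched on both strands. Serpine2 is chr1:79858697-79858915 on the minus strand, Plaur is chr7:24462233-24462482 on the plus strand and Serpinb2 is chr1:107511173-107511422 on the plus strand.
Serpine2: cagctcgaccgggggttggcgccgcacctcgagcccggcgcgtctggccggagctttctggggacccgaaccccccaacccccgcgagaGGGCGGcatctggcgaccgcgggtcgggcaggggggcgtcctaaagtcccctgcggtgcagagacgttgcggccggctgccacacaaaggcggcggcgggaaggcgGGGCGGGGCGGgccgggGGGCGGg
Plaur: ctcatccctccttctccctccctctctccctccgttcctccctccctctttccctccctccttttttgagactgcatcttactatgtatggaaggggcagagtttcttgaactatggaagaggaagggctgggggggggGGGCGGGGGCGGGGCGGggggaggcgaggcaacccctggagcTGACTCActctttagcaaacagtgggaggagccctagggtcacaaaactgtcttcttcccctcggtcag
Serpinb2: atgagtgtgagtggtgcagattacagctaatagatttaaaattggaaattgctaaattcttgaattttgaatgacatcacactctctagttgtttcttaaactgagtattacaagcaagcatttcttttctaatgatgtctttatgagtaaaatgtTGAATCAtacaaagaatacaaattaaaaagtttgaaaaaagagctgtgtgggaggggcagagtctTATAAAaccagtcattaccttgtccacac
The Plaur stretch held an AP-1 motif (TGANTCA, here TGACTCA) at positions -69 to -63 from the start, and the Serpinb2 stretch held another (TGAATCA) at -94 to -88. This motif occurred in 6.75% of 32851 promoters of the same length. The Serpinb2 stretch also held a TATA box (TATAAA) at -29 to -24, a motif present in 12.4% of promoters. RefSeq holds a second Serpinb2 entry with a start further downstream, and from that start the same TATAAA lies at -116 to -111 and the same TGAATCA at -181 to -175. Which start the cells used was not measured here. GC boxes (GGGCGG, 32.7% of promoters) occurred 6 times in the Serpine2 window, 4 of them in the letters shown, and 3 times in the Plaur stretch, and in each stretch a pair of them overlapped in their end letter. The Serpinf1 window, not printed, held the SMAD element CAGACA (17.1% of promoters) at -38 to -33, past the start of an annotated Serpinf1 exon. The paired SMAD box GTCTAGAC (0.167%) and the interferon response motif (2.98%) were not found in these 4 windows. A match describes the letters and does not show that a factor binds there.

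All 6 genes were expressed in untreated MSCs, from 1.40 ± 0.243 FPKM for Serpinb2 to 67.4 ± 3.17 FPKM for Plau (means ± SD, n = 3 here and below). FPKM are fragments per kilobase of exon and scaled to the mapped fragments of the library. On the deposited scale Plau was followed by Plaur (36.8 ± 2.60 FPKM), Serpinf1 (36.5 ± 1.05), Serpine2 (22.9 ± 1.22), Plat (11.5 ± 0.487) and Serpinb2, and of the neighbours in this order the libraries of Plaur and Serpinf1 overlapped. The order depends on the length used. The deposited FPKM divide by the union of all annotated exons of a gene, and for Serpine2 that union, 8287 bases, is 3.75 times its first listed transcript, of 2210 bases. When the levels were rescaled to the length of the first listed transcript of each gene, Serpine2 came first in untreated MSCs at 85.9 ± 4.56 FPKM, followed by Plau at 68.1 ± 3.21 and Plaur at 64.0 ± 4.52, whose libraries overlapped, and then by Serpinf1, Plat and Serpinb2. Which transcripts the cells used was not measured here. Changes between groups do not depend on this length.

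**Figure D1:**
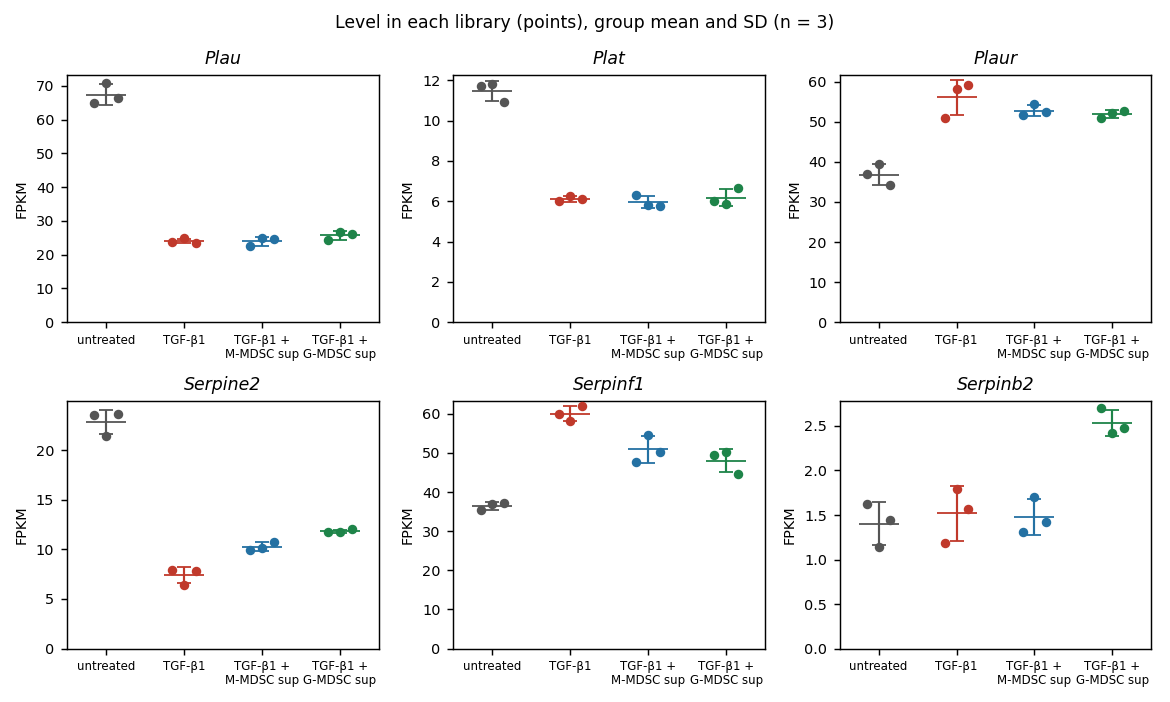
FPKM of the 6 genes in each library (points, y axis from 0) by group (x axis), with the group mean and SD of 3 libraries. The untreated libraries lie above all others for Plau, Plat and Serpine2 and below all others for Plaur and Serpinf1, and the G-MDSC sup libraries lie above all others for Serpinb2.

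**Figure D2:**
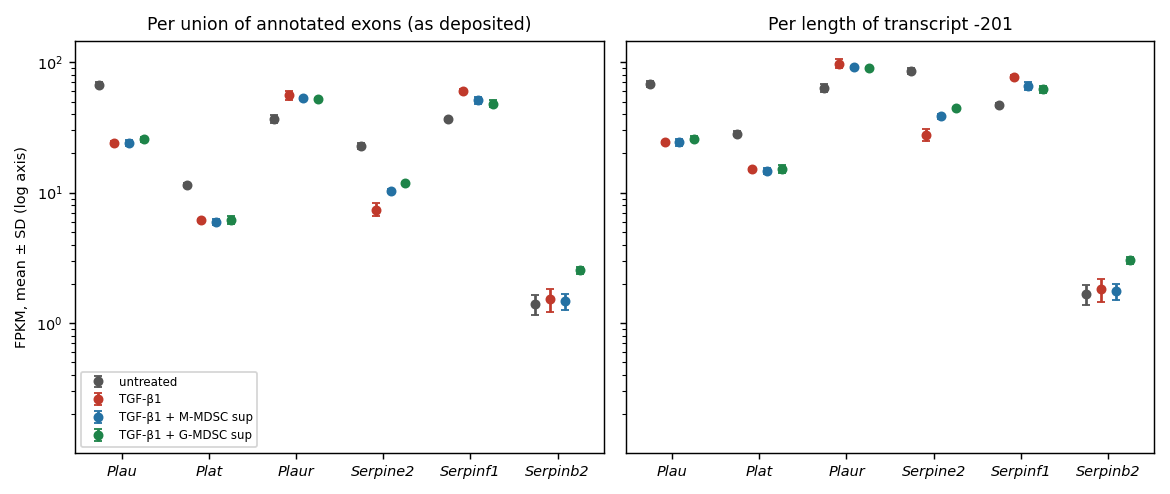
Group means ± SD of FPKM (n = 3, log axis) of the 6 genes, divided by the union of annotated exons as deposited (left) or rescaled to the first listed transcript (right). Serpine2 in untreated MSCs moves from 22.9 to 85.9 FPKM, and Plau from 67.4 to 68.1.

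With TGF-β1 alone, both activators and Serpine2 fell, while the urokinase receptor and Serpinf1 rose. Of the 6 genes, 2 rose and 3 fell at an adjusted p under 0.05, and the groups did not overlap for these 5. Over all 12016 genes tested, 34% passed, 16.1% higher and 17.9% lower, and the groups did not overlap for 46.7%, the background against which 5 of 6 is to be read. The study's own rule asked for a change of over 2-fold either way together with p under 0.05 before adjustment. It called 6.74% of genes, and 2 of the 6, Serpine2 and Plau. The median log2 fold change was -0.34 over the 6 genes and 0.00048 over all genes tested.

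Plau (ENSMUSG00000021822, chr14:20836660-20843385, plus strand of GRCm38) measured 64.8, 70.9 and 66.5 FPKM in untreated MSCs and 23.9, 24.8 and 23.6 FPKM with TGF-β1. The 2 groups were far apart. The log2 fold change was -1.43 (SE 0.057, adjusted p = 2.04e-08 by the edgeR quasi-likelihood test with Benjamini-Hochberg adjustment, as for all adjusted p-values here), a level 2.69-fold lower. Plat (ENSMUSG00000031538, chr8:22757727-22782844, plus strand), the activator best known for dissolving fibrin, was at 11.7, 11.8 and 10.9 FPKM without and 5.99, 6.28 and 6.09 FPKM with TGF-β1. Its fall was smaller than that of Plau, at -0.85 (SE 0.061, adjusted p = 1.65e-06) on the log2 scale, and the difference between the falls was not tested.

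Plaur (ENSMUSG00000046223, chr7:24462484-24475968, plus strand) moved opposite to its ligand. It measured 36.9, 39.4 and 34.2 FPKM in untreated MSCs and 51.0, 58.1 and 59.0 FPKM with TGF-β1, and every treated library exceeded every untreated library. The log2 fold change was 0.66 (SE 0.065, adjusted p = 1.65e-05). The ratio of Plaur to Plau FPKM within a library, given as a description on the deposited scale, was 0.514 to 0.569 in untreated MSCs and 2.14 to 2.50 with TGF-β1. With M-MDSC sup it was 2.14 to 2.29 and with G-MDSC sup 1.96 to 2.10.

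Serpine2 (ENSMUSG00000026249, chr1:79794197-79858696, minus strand) had the most negative log2 fold change of the 6 with TGF-β1, with an interval (-1.73 to -1.40) that overlapped that of Plau (-1.55 to -1.30), and the difference between them was not tested. Which of them fell more in FPKM depends on the length used. Its FPKM were 23.6, 21.5 and 23.6 in untreated MSCs and 7.97, 6.45 and 7.85 with TGF-β1, with replicate 2 lowest in both groups. The log2 fold change was -1.57 (SE 0.075, adjusted p = 7.49e-08), 2.96-fold lower. Serpinf1 (ENSMUSG00000000753, chr11:75409769-75422701, minus strand), a secreted antiangiogenic protein, rose from 35.3, 37.1 and 37.2 FPKM to 60.05, 58.1 and 62.0 FPKM, a log2 fold change of 0.77 (SE 0.059, adjusted p = 2.55e-06). Serpinb2 (ENSMUSG00000062345, chr1:107511423-107532535, plus strand), a mainly intracellular serpin, was low, with 1.62, 1.14 and 1.45 FPKM in untreated MSCs and 1.19, 1.80 and 1.57 FPKM with TGF-β1. These groups overlapped, and the log2 fold change of 0.17 had a 95% confidence interval from -0.23 to 0.57 (adjusted p = 0.511).

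Among the 6 genes, the changes that passed the threshold when a supernatant was added to TGF-β1 were all in serpins. With M-MDSC sup, Serpine2 rose and Serpinf1 fell against TGF-β1 alone, 2 of 6 genes against 4.78% of all genes tested (2.83% higher and 1.95% lower). With G-MDSC sup, Serpine2 and Serpinb2 rose and Serpinf1 fell, 3 of 6 genes against 5.56% (3.1% higher and 2.46% lower). The groups did not overlap for the same genes in each comparison, against 24% and 22.7% of all genes. None of these changes reached a fold of 2, so the study's rule, which called 2.18% and 2.17% of genes, called 0 of the 6 in both. Both comparisons share the TGF-β1 libraries with each other and with the comparison against untreated MSCs, so a TGF-β1 library that is high or low by chance moves all 3, and changes of opposite sign in them are not independent.

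Serpine2 measured 9.98, 10.1 and 10.8 FPKM with M-MDSC sup and 11.8, 11.8 and 12.03 FPKM with G-MDSC sup, all above the 3 TGF-β1 libraries and all below the untreated ones. Its log2 fold change against TGF-β1 was 0.45 (SE 0.074, adjusted p = 0.00496) with M-MDSC sup and 0.65 (SE 0.074, adjusted p = 0.000376) with G-MDSC sup. In mean FPKM, M-MDSC sup undid 18.5% of the TGF-β1 change (15.8% to 19.9% when each library was left out in turn) and G-MDSC sup undid 28.6% (26.3% to 29.8%). Without M-MDSC sup replicate 3, the library with liver transcripts, the rise with M-MDSC sup was 0.42 (adjusted p = 0.0245). It missed the threshold when the 2 groups were fitted alone (adjusted p = 0.0516).

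Serpinf1 measured 47.8, 54.6 and 50.3 FPKM with M-MDSC sup and 49.4, 50.2 and 44.6 FPKM with G-MDSC sup, between the untreated and the TGF-β1 libraries in every case. The log2 fold change against TGF-β1 was -0.26 (SE 0.059, adjusted p = 0.0302) with M-MDSC sup and -0.35 (SE 0.059, adjusted p = 0.00527) with G-MDSC sup. These falls undid 38.9% (32.3% to 46.7%) and 51.0% (43.6% to 55.5%) of the TGF-β1 change in mean FPKM. The call with M-MDSC sup lies near the threshold. It was lost without untreated replicate 1 or 2, without any single TGF-β1 library, and without M-MDSC sup replicate 1 or 3, where the adjusted p ranged up to 0.151 and was 0.107 without M-MDSC sup replicate 3.

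Serpinb2 measured 1.31, 1.71 and 1.42 FPKM (256 to 332 counts) with M-MDSC sup, within the range of the TGF-β1 libraries, and 2.70, 2.42 and 2.47 FPKM (501 to 600 counts) with G-MDSC sup, above every other library. The log2 fold change with G-MDSC sup was 0.71 (SE 0.18, adjusted p = 0.0477), and with M-MDSC sup it was -0.065 (95% confidence interval -0.47 to 0.34, adjusted p = 0.911). The call with G-MDSC sup also lies near the threshold, and was lost when any of 9 of the 12 libraries was left out (those other than untreated replicates 1 and 2 and TGF-β1 replicate 2), with adjusted p up to 0.150, and 0.0620 without M-MDSC sup replicate 3. DESeq2 gave an adjusted p of 0.00559. The liver markers rose with G-MDSC sup too. M-MDSC sup replicate 3, which held liver transcripts at 65.7 FPKM, had 289 Serpinb2 counts, within the 251 to 386 counts of the TGF-β1 libraries. That is a single library, and the part of liver RNA in the Serpinb2 change was not tested. In bulk RNA, a change in the share of cells that express a gene and a change in RNA per cell cannot be told apart.

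The activators and the receptor did not pass with either supernatant. Plau was at 22.5, 25.0 and 24.5 FPKM with M-MDSC sup and 24.3, 26.6 and 26.2 FPKM with G-MDSC sup, overlapping the TGF-β1 libraries. Its log2 fold changes were -0.028 (95% confidence interval -0.15 to 0.096) and 0.066 (-0.059 to 0.19). Plat was at 6.30, 5.81 and 5.74 FPKM and at 6.02, 5.85 and 6.64 FPKM, with changes of -0.063 (-0.20 to 0.072) and -0.014 (-0.15 to 0.12). These intervals do not include a return to the untreated level, which lies 1.43 and 0.85 above. Plaur was at 51.6, 54.3 and 52.5 FPKM and at 50.8, 52.2 and 52.6 FPKM, with changes of -0.11 (-0.25 to 0.034) and -0.14 (-0.28 to 0.0059), the adjusted p being 0.446 and 0.315.

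**Figure D3:**
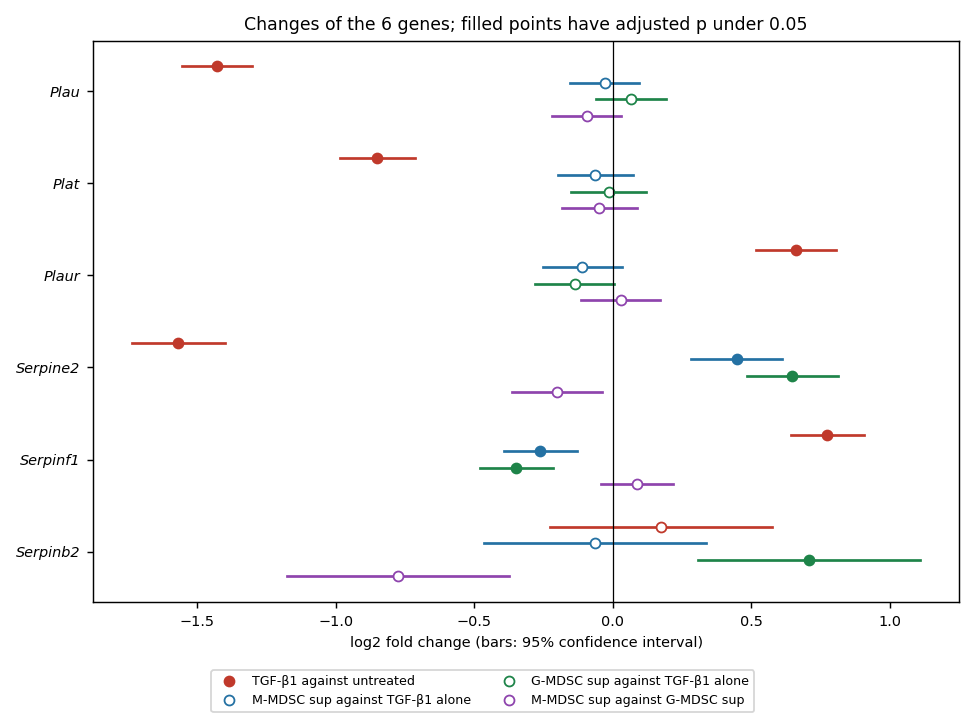
Log2 fold changes (x axis) of the 6 genes (y axis) with unadjusted 95% confidence intervals, filled where the adjusted p was under 0.05. Serpine2 and Serpinf1 lie on opposite sides of 0 with TGF-β1 and with either supernatant added, from -1.57 to 0.65 for Serpine2 and from 0.77 to -0.35 for Serpinf1.

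Between the 2 supernatants, none of the 6 genes passed an adjusted p of 0.05 in edgeR, against 0.125% of all genes tested. At an unadjusted p under 0.05, which 6.33% of genes reached, 2 of the 6 differed, Serpine2 and Serpinb2, and these were also the genes whose groups did not overlap (12% of all genes). Serpine2 was lower with M-MDSC sup by -0.20 on the log2 scale (95% confidence interval -0.36 to -0.038, unadjusted p = 0.0205, adjusted p = 0.670). Serpinb2 was lower with M-MDSC sup by -0.77 (-1.17 to -0.37, unadjusted p = 0.00148, adjusted p = 0.211 over a range of 0.0124 to 0.586 in the alternatives), and of the 6 genes DESeq2 called Serpinb2, at 0.0124. Without M-MDSC sup replicate 3 the difference in Serpinb2 was -0.74 (adjusted p = 0.399). The intervals for Plau (-0.22 to 0.030), Plat (-0.18 to 0.087), Plaur (-0.11 to 0.17) and Serpinf1 (-0.044 to 0.22) included 0.

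Against untreated MSCs, 5 of the 6 genes still passed with TGF-β1 and M-MDSC sup (35.2% of all genes did) and all 6 with TGF-β1 and G-MDSC sup (34.8%). Plau stayed lower at -1.45 and -1.36, Plat at -0.91 and -0.86 and Serpine2 at -1.12 and -0.92 on the log2 scale. Plaur stayed higher at 0.55 and 0.53, and Serpinf1 at 0.51 and 0.43. Serpinb2 was 0.88 above untreated MSCs with G-MDSC sup (SE 0.18, adjusted p = 0.00310) and 0.11 with M-MDSC sup (adjusted p = 0.687). By the study's rule, 2 genes were called with M-MDSC sup (6.98% of all genes) and 1, Plau, with G-MDSC sup (6.8%).

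Plasminogen itself (Plg), the substrate of both activators, had 0 counts in all 6 libraries without supernatant. By counting error alone, a 0 allows up to 3 counts in each, and the libraries varied by more than counting error. Plg had 222, 235 and 183 counts with G-MDSC sup and 0, 0 and 185 counts with M-MDSC sup, the last in replicate 3. Plg and the other liver genes in this paragraph were picked out after their values were seen. Vitronectin (Vtn), which binds the urokinase receptor, followed the same libraries with 0 counts without supernatant, 215, 192 and 238 with G-MDSC sup and 0, 8 and 166 with M-MDSC sup. Antiplasmin (Serpinf2), the main plasma inhibitor of plasmin, had at most 40 counts without supernatant, 129 to 138 with G-MDSC sup and 27, 24 and 124 with M-MDSC sup. These counts move with the liver markers from library to library, and the part of liver RNA in them was not tested.

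**Figure D4:**
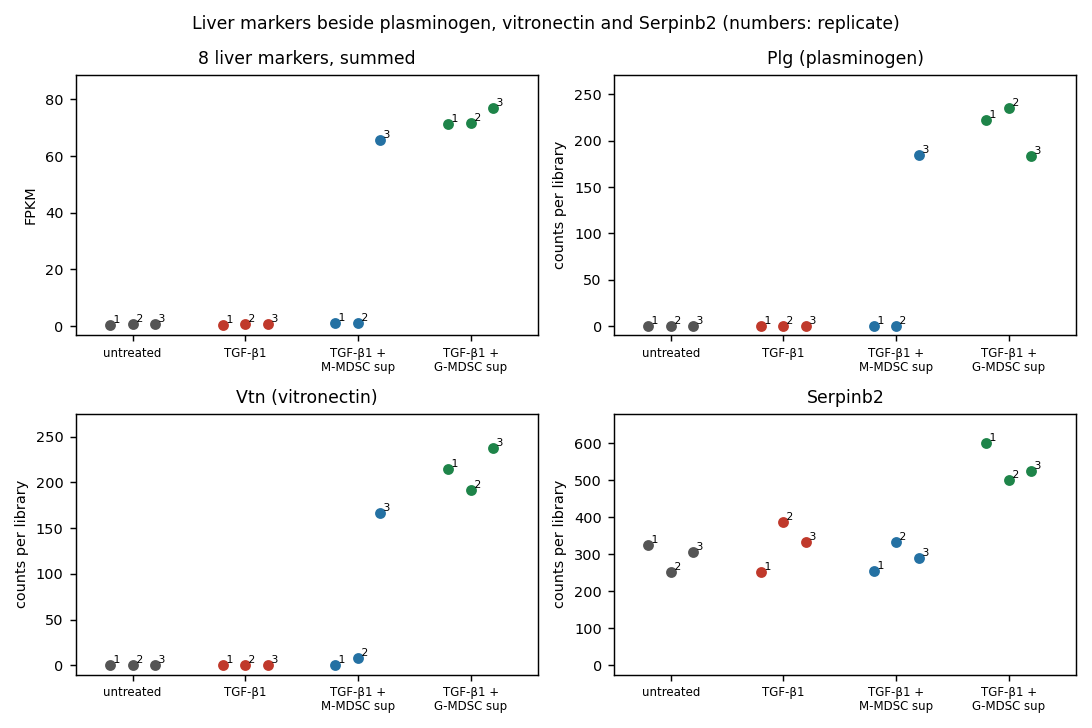
Summed FPKM of 8 liver markers and counts of Plg, Vtn and Serpinb2 in each library (y axes) by group (x axes), with replicate numbers beside the points. Plg and Vtn are high in the 3 G-MDSC sup libraries and in M-MDSC sup replicate 3, where Serpinb2 has 289 counts.

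Genes around the 6 members were read from lists made with earlier results known, and each count below is given for TGF-β1 against untreated first. The counts describe the lists and are to be read against all genes tested, of which 34% passed with TGF-β1 (16.1% higher and 17.9% lower), 4.78% with M-MDSC sup and 5.56% with G-MDSC sup. A gene that reached 1 FPKM in some groups and not in others entered the test through the groups where it was high, so its difference is no support, and its levels are given instead. Of 4 tested surface receptors of plasminogen, 0 rose and 3 fell (17.9% of all genes fell): Anxa2 by -0.67 and its partner S100a10 by -0.55 on the log2 scale, which together bind plasminogen and tissue plasminogen activator, and Plgrkt by -0.63. The level of Anxa2 went from 366 ± 17.7 to 222 ± 5.85 FPKM. With M-MDSC sup, 1 of the 4 rose (Eno1, 0.20, adjusted p = 0.0308), and with G-MDSC sup 2 fell further (Anxa2, -0.21, and S100a10, -0.20). The median over the 4 was -0.59 with TGF-β1.

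Of 8 tested partners of the urokinase receptor, 5 rose and 2 fell with TGF-β1, against 16.1% and 17.9% of all genes, and 1 of the 8, Vtn, was under 1 FPKM in some group. The fibronectin receptor subunit Itga5 rose from 45.0 ± 2.08 to 196 ± 10.1 FPKM (log2 fold change 2.18), and the vitronectin receptor subunit Itgav rose by 0.69. Itga3, a laminin receptor subunit, fell from 118.5 ± 2.20 to 30.9 ± 1.51 FPKM (-1.88) and fell by a further 0.30 with G-MDSC sup (adjusted p = 0.00296), the 1 call in this list with either supernatant. Of 7 tested receptors and partners that clear complexes of activators with serpins, 1 rose (Vldlr, 0.78, 16.1% of all genes rose) and 2 fell (Mrc2, which also carries collagen into the cell, by -0.30, and the chaperone Lrpap1 by -0.18). None of the 7 passed with either supernatant in edgeR, and Lrp1, the main clearance receptor, had log2 fold changes of 0.062, -0.31 and -0.32 in the 3 comparisons, none passing.

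Of 12 listed other inhibitors of plasmin, its activators or related proteases, 2 were expressed highly enough to test. Serping1, the C1 inhibitor, reached 1 FPKM in the untreated libraries and in no other, and entered the test through them. It measured 1.43 ± 0.179 FPKM untreated, 0.211 ± 0.0463 with TGF-β1, 0.571 ± 0.223 with M-MDSC sup and 0.825 ± 0.218 with G-MDSC sup. Its M-MDSC sup libraries had 104, 72 and 164 counts, the highest in replicate 3. Serpinb6a fell by -0.29 with TGF-β1 (adjusted p = 0.0282). Of 9 other tested serpins, 3 rose and 4 fell with TGF-β1. With each supernatant 1 rose (2.83% and 3.1% of all genes did), Serpinb9 with M-MDSC sup (0.40, adjusted p = 0.00492) and Serpina3h with G-MDSC sup. Serpina3h rose by 2.42 with TGF-β1 and by a further 0.64 with G-MDSC sup, while Serpinb9b fell by -2.71 with TGF-β1. Of the 9, 5 were under 1 FPKM in some group and entered the test through others, and they hold 1 of the 3 rises (Serpina3i) and 2 of the 4 falls (Serpinb1a and Serpina3g) with TGF-β1, so these counts are not read against all genes. Serpina3g was at 1.24 ± 0.158 FPKM untreated and 0.157 ± 0.159 with TGF-β1. Serpina3h, Serpina3g and Serpinb9b belong to mouse gene clusters of near-identical copies, so that reads could be split between neighbours and their values are uncertain.

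Of 6 tested genes for proteins cut or activated by urokinase or plasmin, 4 rose and 1 fell with TGF-β1 (17.9% of all genes fell). Of the 4 rises, Mmp9 entered the test through groups where it was high, so the count of rises is not read against all genes. The others were Tgfb1, Fn1 and Thbs1. Mmp9, a matrix metalloproteinase, was under 1 FPKM in untreated MSCs (0.214 ± 0.0929 FPKM) and at 1.13 ± 0.0915 with TGF-β1. It was at 1.17 ± 0.198 FPKM with M-MDSC sup and 2.33 ± 0.158 with G-MDSC sup. Tgfb1 rose by 1.98, and the neurotrophin Bdnf fell by -0.64. With either supernatant the same pair of matrix proteins fell, Fn1 (fibronectin) by -0.39 and -0.40 and Thbs1 (thrombospondin-1) by -0.25 and -0.37. Of 8 tested genes of coagulation and thrombin signaling, 2 fell with TGF-β1 (17.9% of all genes fell), F3 (tissue factor, which starts coagulation) by -0.43 and Thbd, a thrombin-binding anticoagulant receptor, by -1.53. The 2 genes higher with TGF-β1, F2rl1 and F13a1, were under 1 FPKM in some group, as were 4 of the 8, and no count of rises is read from them. The protease-activated receptor gene F2rl1 measured 0.772 ± 0.0837 FPKM untreated and 5.28 ± 0.559 with TGF-β1. The transglutaminase F13a1, which cross-links fibrin, reached 1 FPKM in the supernatant libraries and in no other, and entered the test through them. It measured 0.0913 ± 0.0147 FPKM untreated, 0.392 ± 0.112 with TGF-β1, 1.31 ± 0.0471 with M-MDSC sup and 1.46 ± 0.0858 with G-MDSC sup. With either supernatant 1 of the 8 fell, the thrombin receptor gene F2r (-0.31 and -0.37, where 1.95% and 2.46% of all genes fell), and Thbd rose with G-MDSC sup by 0.38 (adjusted p = 0.0482). Fibrinogen alpha (Fga) entered the test through the libraries with liver transcripts. It had 0 counts without supernatant, 313, 293 and 376 with G-MDSC sup and 11, 15 and 263 with M-MDSC sup, again along the liver markers. Of 4 tested receptors of Serpinf1, 2 fell with TGF-β1 (17.9% of all genes fell), Plxdc2 by -0.38 and the lipase Pnpla2 by -0.30, and none passed with either supernatant in edgeR. Between the supernatants, 0 genes of these lists passed in edgeR.

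As a description over the 12 libraries, which fall into 4 treatment groups, the genes most like each member in log2(FPKM + 1) were found by Pearson's r among 12016 genes. Plau was closest to Xpnpep2 (r = 0.999), Plekha6 and Cdc42ep2 (both 0.997), and 1097 genes had r above 0.9 with it. Plat was closest to Smad3 (0.995), a transducer of TGF-β signals, Adamts9 (0.994) and Parm1 (0.992), with 1056 genes above 0.9. Serpine2 was closest to Dtwd1 and to the TGF-β co-receptor Tgfbr3 (both 0.992) and to Osmr (0.991), with 486 genes above 0.9. Plaur was closest to Idh3a (0.982), the collagen chaperone Serpinh1 (0.981) and Hlx (0.973), and Serpinf1 to Snx24 (0.981), Mcam (0.976) and Pycr1 (0.973). Serpinb2 had 0 genes above 0.9 and was closest to Psmd5 (0.872), Nfkbiz (0.865) and Il1rap (0.864).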

How the data were processed

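Messenger RNA of 12 libraries, 3 in each of 4 groups, was sequenced. Per the submitters' processing notes and the study's methods, reads were trimmed (cutadapt 1.9), aligned to GRCm38 (HISAT2 2.0.4) and assembled (StringTie 1.3.4d). The counting tool is not given in the sources used here. The authors deposited the read count and the FPKM of every gene in each library. Where the count is 0 the deposited FPKM is written as 0.0001, read here as 0. Among low counts (1 to 12), 44.3% were multiples of 4, and the cause was not tested. Within groups, the variance between pairs of libraries, averaged over genes, was 45.0 to 62.7 times that of counting error. This average does not give the spread of a single gene. It is the spread between libraries that limits precision.

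Genes were kept if 3 or more libraries reached 1 FPKM (12016 genes, all 6 members among them), and their counts were scaled by TMM and fitted with all groups in edgeR 4.0.16 (R 4.3.3, two-sided quasi-likelihood F test), with Benjamini-Hochberg adjustment over all genes tested. The steps were tested on simulated data. Alternatives were RLE scaling, DESeq2 1.42.0, limma 3.58.1 on log2(FPKM + 1) and log2(FPKM + 0.1), no filter, a filter of 0.1 FPKM, the 2 groups alone, a replicate block, counts divided by 4, the study's rule, TMM-scaled levels and leaving out each library. Rescaling levels to the first listed transcript was chosen after seeing the data. The members and gene lists were chosen with earlier results of these data known. All members are named, and from each list up to 3 genes with the largest change among those passing in any of the first 3 comparisons. Other genes of the lists that are named (Plg, Vtn, Serpinf2, Fga, Eno1, Lrp1, Fn1, Thbs1, F2r, F3, Thbd, Serpinb9, Serpina3i and Serpinb1a where they fall outside this rule) were chosen after their values were seen. The promoters are RefSeq's, and Python 3.11.15 and pandas 2.3.3 were used.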

Additional observations from a re-analysis of the deposited data

How the results depend on the processing

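Over 21 other settings, the study's rule not counted, 716 of 756 values for a member in a comparison kept their direction and side of the threshold. The 5 changes with TGF-β1 did so under all 21. The study's rule lost 16 calls over all comparisons. It kept 2 of the 5 with TGF-β1 and left 0 of the calls with either supernatant against TGF-β1, 2 with M-MDSC sup against untreated and 1 with G-MDSC sup against untreated. With M-MDSC sup against TGF-β1, members passing fell from 2 to 1 (Serpinf1 lost) with limma on log2(FPKM + 0.1), no filter, the filter of 0.1 or the replicate block, and to 0 with the 2 groups alone. Leaving out single libraries gave 1 to 2. With G-MDSC sup, Serpinb2 was lost with no filter, the filter of 0.1, the 2 groups alone and the replicate block (adjusted p 0.0525 to 0.0948). Between supernatants DESeq2 called 1 member, Serpinb2. The cause of these losses was not tested. Same-numbered libraries did not deviate together (mean r 0.0017 over 18 pairs, -0.0008 over 36 others), so the replicate block took them as paired by number alone.

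Reversed values were all near 0 and none passed. Against TGF-β1 with M-MDSC sup leaving out single libraries gave -0.059 to 0.015 for Plau (positive without M-MDSC sup replicate 1) and -0.22 to 0.075 for Serpinb2 (positive without that library or TGF-β1 replicate 2). With G-MDSC sup, Plat was 0.0085 and 0.0095 with limma at pseudocounts 1 and 0.1, 0.00048 with the filter of 0.1, and -0.071 to 0.024 without single libraries. Between supernatants Plat ranged from -0.093 to 0.0080 (positive without G-MDSC sup replicate 3), and Serpinb2 with M-MDSC sup against untreated from -0.0088 (without replicate 2 of either group) to 0.22.

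Genes passing over the whole table moved by over 1.5 times as follows. By the study's rule they went from 4082 to 810 (TGF-β1 against untreated), 574 to 262 and 668 to 261 (M-MDSC and G-MDSC sup against TGF-β1), 15 to 66 (between supernatants), and 4234 to 839 and 4187 to 817 (against untreated). For M-MDSC sup against TGF-β1 they were 351 with the 2 groups alone and 355 without TGF-β1 replicate 2. Between supernatants they were 121 with DESeq2, 39 with limma at pseudocount 1, 41 with the 2 groups alone, 8 with the replicate block, and 9 to 47 without single libraries, the highest without M-MDSC sup replicate 3. TMM scaling moved no member's level by over 1 SD. Leaving out 1 of 3 libraries cannot move a group mean that far, so nothing is read from it for the levels.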

Other observations

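Antithrombin (Serpinc1) had 180 counts in untreated replicate 3, against 3 and 8 counts in the other 2 untreated libraries and 12, 0 and 20 with TGF-β1. Its liver markers summed to 0.656 FPKM, against 0.490 and 0.599 in the other 2. The gene did not pass the filter, was chosen after its values were seen, and was in no test.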
